A study of Mus musculus with 6 samples.

Results

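Transcripts of 53 genes for xenobiotic, aldehyde and glutathione metabolism were followed in C2C12 cells with and without raised Msx1, out of 24809 genes in the table. The genes were chosen by enzyme family and from their measured levels in these same libraries, control against Msx1, so their differences are a description and no p-value is given for them. C2C12 is an established mouse myoblast line, and Msx1 is a homeobox transcription factor known to oppose muscle differentiation. The control group (n = 3) is C2C12 with the genotype given as control, whose columns are headed as vector, and the other group (n = 3) is C2C12 with Msx1 overexpression. All 6 libraries share the cell line, and the labels give no other allele or agent, no promoter driving Msx1, and not whether cells were a clone or a pool. They also do not give growth stage or density at harvest, so either one cannot be told apart from Msx1 itself. Whether the replicates were separate cultures is not stated, and a p-value here reflects spread among the samples that could be technical.

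Xenobiotic metabolism runs in steps. Phase I enzymes such as flavin monooxygenases, cytochromes P450, carbonyl reductases and carboxylesterases oxidise, reduce or hydrolyse a compound, and glutathione transferases then couple reactive products to glutathione, a peptide made by the glutamate-cysteine ligase and glutathione synthetase. Aldehyde and alcohol dehydrogenases clear aldehydes and also make and use retinoids. The transcription factor NRF2 (gene Nfe2l2), held in check by KEAP1, is known to induce many of these genes, and the aryl hydrocarbon receptor induces the P450 genes of the CYP1 family. Skeletal muscle is not a main site of drug metabolism, but it uses glutathione and its peroxidases against oxidants.

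Msx1 was at 7.99, 7.13 and 7.54 FPKM (fragments per kilobase of transcript, scaled to the mapped fragments of the library) in the control libraries and at 1004, 944 and 912 FPKM in the libraries with Msx1, 126-fold higher. Estimated depth was 18.7 to 24.2 M fragments (M, mega) per library. All 8 myoblast markers were present in every library, and they summed to 279 to 288 FPKM in the controls and 275 to 281 FPKM in Msx1 libraries. Des was the largest part of these sums (140.1 ± 0.668 and 116 ± 4.89 FPKM). Its fall was offset by Ncam1 (27.1 ± 2.88 and 53.1 ± 5.11 FPKM), so the sums hide opposite changes. By limma, adjusted over all genes, 5 of the 8 were called (62.5%, against 54.4% of all genes tested). Myf5 fell from 9.01 ± 0.396 to 1.64 ± 0.0968 FPKM (log2 difference -1.92, adjusted p = 2.77e-07). Des (-0.27) and Chrna1 (-0.16) fell, and Ncam1 (0.94) and Pax7 (0.28) rose, while Myod1, Cdh15 and Itga7 were not called. Fibroblast markers summed to 43.9 to 51.4 FPKM in the controls and 172 to 185 FPKM in Msx1 libraries: Dcn, Dpt, Pi16 and Col1a1 rose, Pdgfra fell and Tcf21 was listed at 0 throughout. Macrophage markers summed to 12.1 to 14.7 and 21.5 to 25.8 FPKM, mostly from Lyz2, with Ptprc and Adgre1 listed at 0. Lyz2 rose (1.04) and Cd68 fell (-0.96). Endothelial markers stayed under 1 FPKM in sum. Adipocyte markers summed to 5.59 to 6.61 and 2.54 to 3.43 FPKM, with Plin1, Cidec, Retn and Lep listed at 0. Pparg (-1.22) and Fabp4 (-0.98) fell. Adipoq and Cfd were listed at 0 in the controls and averaged 0.560 and 0.670 FPKM in Msx1 libraries. Hepatocyte markers stood apart in 1 library of each group: they summed to 20.9 FPKM in control replicate 2 and 7.30 FPKM in Msx1 replicate 3, against at most 0.276 FPKM in the other libraries. Albumin (Alb) alone was at 13.5 and 4.43 FPKM in those libraries and listed at 0 in the others. Many of the enzymes below are also liver genes, and the larger differences are given again further on without these libraries. The part of other cell types in the differences was not tested.

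Of the 53 genes, 50 passed the filter on low values, a mean of at least 0.5 FPKM over the 6 libraries. Aldh1a2, which makes retinoic acid, and Akr1c18, a steroid dehydrogenase, were listed at 0 in every library. Aldh1a7 was listed at 0 in all control libraries and at 0.187, 0.141 and 0.315 FPKM in the libraries with Msx1, so no fold is given. Ces1d, Aldh1a3 and Cyp1a1 passed it only through the Msx1 group and Fmo4 only through the control group. Called is used here for a gene past an adjusted p of 0.05 in limma on log2(FPKM + 1), fitted over all 12371 genes above the filter. For the 50 genes a call only says on which side of that line their difference lies, since the line was applied to the values that chose them. On that reading 37 of the 50 (74.0%) were called, 19 higher and 18 lower in Msx1 cells. Over all genes tested 54.4% were called, 22.0% higher and 32.4% lower. The groups did not overlap for 41 of the 50 (20 higher, 21 lower), against 62.3% of all genes. The difference reached 1 or more on the log2 scale for 13 called higher and 6 called lower, against 7.53% of all genes in either direction. Because the levels that gave these counts also chose the genes, nothing is read from the shares. The median log2 difference of the 50 was 0.01, beside -0.07 for all genes. In bulk RNA, fewer cells of a type and less RNA per cell cannot be told apart, for these and all later values.

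The summed level of the 53 genes was 3477 ± 156 FPKM in the controls and 3765 ± 123 FPKM in Msx1 libraries (SD, n = 3 each), with no overlap between the groups. In control cells the highest members were Gpx4 (333 ± 47.8 FPKM), Ephx1 (332 ± 3.11), Fmo1 (281 ± 25.1) and Cbr2 (265 ± 13.9). In Msx1 cells they were Aldh2 (391 ± 10.7 FPKM), Gpx4 (362 ± 12.5), Ephx1 (348 ± 6.96) and Gstm1 (336 ± 15.0). Some neighbours in these orders differed by less than their spread: Gpx4 and Ephx1, and Fmo1 and Cbr2, in control cells, and Ephx1 and Gstm1 in Msx1 cells. Replicates varied by a median of 8.20% (coefficient of variation) among the 50 in control and 5.09% in Msx1 libraries, close to the 8.11% and 5.18% of all genes tested. Among the 50, control replicate 1 was the highest control library for 27, and Msx1 replicate 3 was the highest Msx1 library for 35. The same count was not made over all genes, and these libraries also had the highest total FPKM of their groups.

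**Figure D1:**
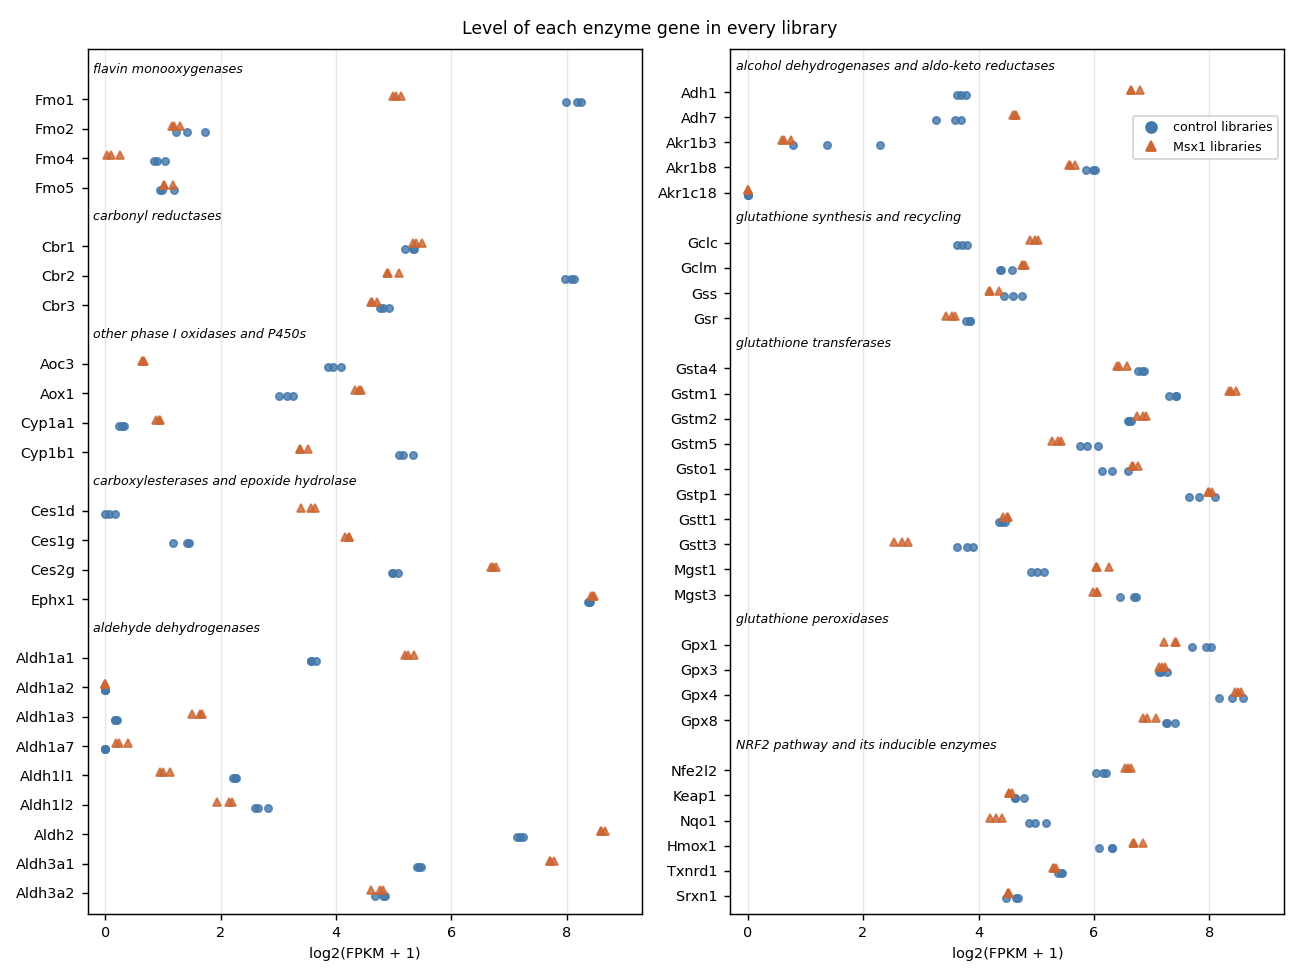
Level of each of the 53 genes in every library as log2(FPKM + 1), grouped by role, with circles for the 3 control and triangles for the 3 Msx1 libraries. Fmo1, Cbr2 and Aoc3 lie far to the left in Msx1 libraries, and Ces1d, Ces1g, Adh1 and Aldh3a1 far to the right, while Aldh1a2 and Akr1c18 sit at 0 in all 6.

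The flavin monooxygenases, which oxidise nitrogen and sulphur in drugs and metabolites, were dominated by 1 gene. Fmo1 (chromosome 1, 162829561 to 162866610, GRCm38) was at 253, 302 and 287 FPKM in control replicates 1, 2 and 3 and at 30.8, 31.7 and 33.8 FPKM in Msx1 replicates 1, 2 and 3. Every control library was far above every Msx1 library, with means of 281 ± 25.1 and 32.1 ± 1.55 FPKM, 8.75-fold lower in Msx1 cells (log2 difference -3.09, SE 0.07). The gene moved from the 98.2nd to the 79.9th percentile of level among the genes tested. It made up 98.7% of the summed level of the family in control and 92.7% in Msx1 cells. The 3 other members were low: Fmo4 was called lower (0.903 ± 0.137 to 0.0993 ± 0.0906 FPKM), and Fmo2 and Fmo5 overlapped between the groups and were not called.

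Carbonyl reductases turn ketones and quinones into alcohols. Cbr2 (chromosome 11, 120729485 to 120732025), a mitochondrial reductase known for its high level in mouse lung, was at 277, 249.9 and 269 FPKM in the controls and at 33.2, 28.6 and 29.0 FPKM in Msx1 libraries. The groups were far apart, 8.76-fold lower in Msx1 cells (log2 difference -3.09, SE 0.07). Its cytosolic relatives behaved otherwise. Cbr1 was at 35.8 to 39.9 FPKM in the controls and 39.3 to 44.1 FPKM in Msx1 libraries and was not called. Cbr3 went from 27.4 ± 1.54 to 24.0 ± 1.01 FPKM (log2 difference -0.18, SE 0.06) and was called lower. That call was lost in 9 of the 14 alternatives, among them all 3 other scalings. Cbr2 made up 80.1% of the summed level of the 3 reductases in control and 31.6% in Msx1 cells.

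Among other phase I oxidases, Aoc3, the vascular adhesion protein that oxidises primary amines at the cell surface, differed most. It was at 13.6, 16.0 and 14.4 FPKM in the controls and 0.553, 0.584 and 0.587 FPKM in Msx1 libraries, 25.5-fold lower (log2 difference -3.31, SE 0.07). Cyp1b1, a P450 that metabolises steroids, retinoids and polycyclic hydrocarbons, was at 33.0, 39.5 and 34.9 FPKM in the controls and 9.37, 10.4 and 9.34 FPKM in Msx1 libraries, 3.69-fold lower (-1.78, SE 0.08). Neither gene overlapped between the groups. The aldehyde oxidase gene Aox1 went the other way, from 7.04, 8.52 and 7.92 FPKM to 19.1, 20.2 and 20.7 FPKM, 2.56-fold higher (1.25, SE 0.07). Cyp1a1, the other CYP1 enzyme of the set, stayed under 1 FPKM but was called higher (0.175 to 0.255 FPKM in control, 0.836 to 0.921 FPKM in Msx1 libraries). The 2 CYP1 genes thus had opposite signs.

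Carboxylesterases, which hydrolyse ester drugs and lipids, were all higher. Ces1d, a lipid hydrolase of liver and fat, was at 0.0446, 0.123 and 0 FPKM in the controls and at 10.8, 9.51 and 11.4 FPKM in Msx1 libraries (log2 difference 3.45, SE 0.09). As 1 control library is listed at 0 and the others are close to it, no fold is given. Ces1g was at 1.74, 1.27 and 1.67 FPKM in the controls and 17.6, 16.8 and 17.7 FPKM in Msx1 libraries, 11.1-fold higher (2.85, SE 0.08). Ces2g was at 30.6, 30.4 and 32.7 FPKM against 102, 104 and 108 FPKM, 3.36-fold higher (1.72, SE 0.05). The groups were apart for all 3 genes. Ces1 genes are related copies that can share reads, so the split between them is uncertain. The epoxide hydrolase gene Ephx1, by far the most abundant of this role, was at 332 ± 3.11 FPKM in the controls and 348 ± 6.96 FPKM in Msx1 cells and was not called, although the groups did not overlap.

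Aldehyde dehydrogenases oxidise aldehydes to acids, and their summed level was 233 ± 5.17 FPKM in the controls and 672 ± 18.8 FPKM in Msx1 libraries. Aldh2, the mitochondrial enzyme that clears acetaldehyde and lipid aldehydes, was at 144, 139 and 149.9 FPKM in the controls and 385, 385 and 404 FPKM in Msx1 libraries, 2.71-fold higher (log2 difference 1.43, SE 0.06). Aldh3a1, which is abundant in cornea and acts on lipid aldehydes, was at 43.3, 42.4 and 41.3 FPKM against 208, 209 and 217 FPKM, 4.99-fold higher (2.29, SE 0.05). Both genes were apart in all libraries and together held most of the sum.

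The retinaldehyde dehydrogenases Aldh1a1 and Aldh1a3 make retinoic acid. Aldh1a1 was at 10.8, 11.5 and 10.9 FPKM in the controls and 36.8, 35.7 and 39.6 FPKM in Msx1 libraries, 3.38-fold higher (log2 difference 1.67, SE 0.06). Aldh1a3 was low in both groups but apart, at 0.121 to 0.155 FPKM and 1.84 to 2.20 FPKM (1.43, SE 0.08). The folate enzymes of the family, which oxidise formyltetrahydrofolate, were lower. Aldh1l1, the cytosolic form, was at 3.66 to 3.79 FPKM in the controls and 0.938 to 1.17 FPKM in Msx1 libraries (-1.22, SE 0.07), and Aldh1l2, the mitochondrial form, at 5.08 to 6.06 and 2.83 to 3.56 FPKM (-0.60, SE 0.09). Aldh3a2, a fatty aldehyde dehydrogenase, overlapped at 24.4 to 27.7 and 23.3 to 27.2 FPKM and was not called.

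Alcohol dehydrogenases turn alcohols, retinol included, into aldehydes. Adh1 (chromosome 3, 138277585 to 138290698) was at 12.7, 12 and 11.3 FPKM in the controls and 98.9, 98.7 and 110.1 FPKM in Msx1 libraries, 8.54-fold higher (log2 difference 2.99, SE 0.06). It moved from the 52.0th to the 94.8th percentile of level. Adh7, its epithelial relative, was at 8.61, 11.1 and 11.9 FPKM against 23.3, 24.2 and 23.8 FPKM, 2.25-fold higher (1.11, SE 0.11). The aldo-keto reductase gene Akr1b8 was called lower, at 57.1 to 64.2 and 46.2 to 50.1 FPKM (-0.35, SE 0.06). Aldose reductase, listed as Akr1b3, scattered widely in control libraries, at 3.90, 0.718 and 1.60 FPKM, and was at 0.553, 0.517 and 0.686 FPKM in Msx1 libraries (-0.82, SE 0.32, not called). Without control replicate 2 its difference was -1.17 and was called.

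**Figure D2:**
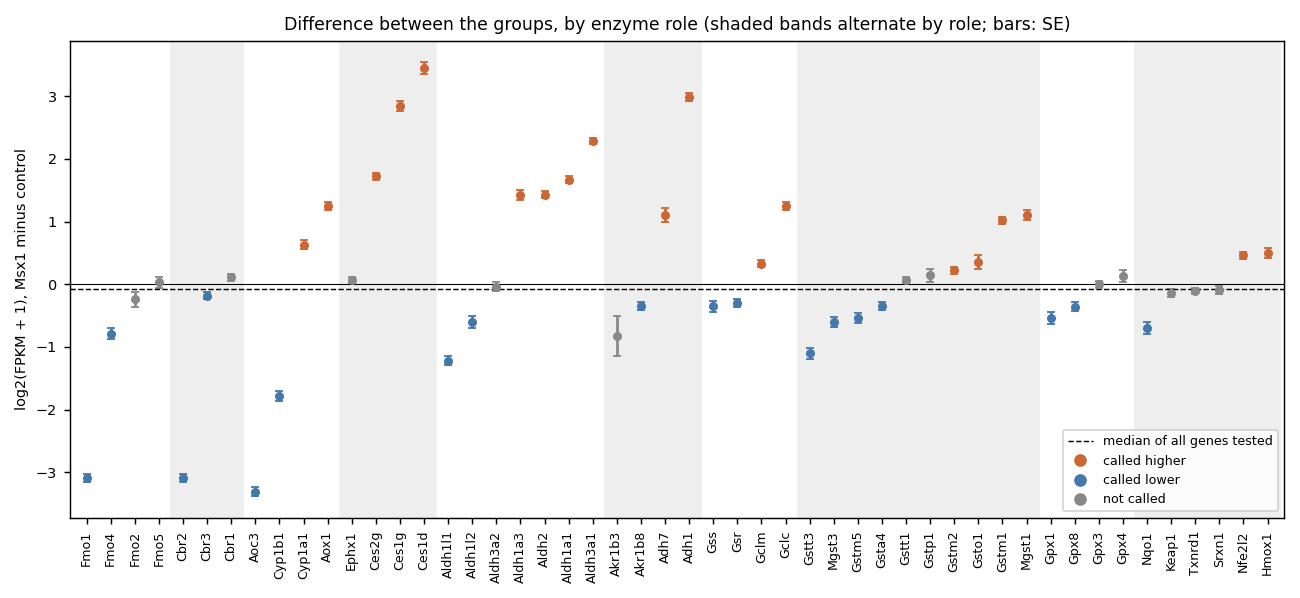
Difference between the groups on the log2(FPKM + 1) scale, Msx1 minus control, for the 50 genes above the filter, ordered within each role, with bars for the SE of limma and a dashed line at the median of all genes, -0.07. Differences run from -3.31 for Aoc3 to 3.45 for Ces1d. Every carboxylesterase lies above the line, and most glutathione genes lie within 1 of it.

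NRF2 and its inhibitor were measured beside enzymes NRF2 is known to induce. Nfe2l2 was at 64.4, 73.1 and 70.5 FPKM in the controls and 92.3, 95.3 and 98.4 FPKM in Msx1 libraries, 1.38-fold higher with no overlap (log2 difference 0.46, SE 0.06). Keap1 was at 26.5, 23.9 and 23.9 FPKM against 22.2, 22.2 and 22.8 FPKM (-0.14, SE 0.06) and was not called, although the groups did not overlap. The inducible enzymes did not move one way. Hmox1, the haem-degrading oxygenase, was at 78.6, 67.4 and 78.6 FPKM against 101, 102 and 114 FPKM, 1.41-fold higher (0.50, SE 0.08). Nqo1, a quinone reductase and a standard NRF2 reporter gene, was at 34.9, 28.5 and 30.4 FPKM against 18.8, 17.4 and 20.2 FPKM, 1.66-fold lower (-0.70, SE 0.09). Each of these was apart in all libraries. Thioredoxin reductase Txnrd1 (42.6, 40.4 and 42.2 FPKM against 39.5, 38.5 and 38.1 FPKM) and sulfiredoxin Srxn1 (24.8, 21.2 and 24.2 FPKM against 21.8, 21.8 and 22.0 FPKM) were not called. Txnrd1 did not overlap and Srxn1 did, and the Srxn1 difference was called without control replicate 2 (-0.16).

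Glutathione synthesis showed the same split within a pathway. Gclc, the catalytic subunit of glutamate-cysteine ligase, was at 13.0, 11.3 and 12.2 FPKM in the controls and 28.8, 30.7 and 31.6 FPKM in Msx1 libraries, 2.49-fold higher (log2 difference 1.25, SE 0.07). Gclm, its modifier subunit, was at 22.8, 20.0 and 19.7 FPKM against 25.9, 26.3 and 27.0 FPKM, 1.27-fold higher (0.33, SE 0.06). Both subunits were apart in all libraries. Glutathione synthetase Gss, which makes the second bond, was at 26.1, 20.8 and 23.2 FPKM against 17.3, 17.2 and 19.4 FPKM, 1.30-fold lower (-0.35, SE 0.09). Glutathione reductase Gsr, which recycles the oxidised form, was at 13.4, 13.4 and 12.8 FPKM against 9.85, 10.7 and 11.1 FPKM, 1.25-fold lower (-0.30, SE 0.06). Neither overlapped.

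The promoters of these genes were searched for the letters of the antioxidant response element, TGACNNNGC, and of the xenobiotic response element bound by the aryl hydrocarbon receptor, TNGCGTG, on both strands. Each window ran from 250 bases before to 50 bases after a start in the promoter table (RefSeq, GRCm38.p6). Some of these starts, as for Adh7 and Txnrd1, lie inside the gene, and a gene can have several. Of the 53 genes 41 matched that table, with 51 promoters. The first set of letters was found in 7 of the 41 genes (17.1%), against 14.0% of 27025 genes, and in 13.7% of their promoters against 12.4% of all. The second was found in 2 of the 41 (4.88%), Adh7 and Aldh3a2, against 5.84% of all genes, and in 3.92% of their promoters against 5.07% of all. None of the 7 matches held the overlapping letters of an AP-1 site, TGACTCA on either strand, as 149 of 4424 matches in all promoters did. AP-1 letters outside the matches were not counted. The letters searched have C after TGA, so TGAGTCAGC, which lies in the Gstp1 and Srxn1 windows, was not taken as a match. A match is only a run of letters, and none in this window says nothing of sites elsewhere. The promoters below are those with the first set of letters, in capitals, among the measured glutathione and NRF2 genes. They include genes called higher (Gclm, Mgst1, Nfe2l2), lower (Gstm5) and not called (Srxn1, Txnrd1). Each is given 5′ to 3′ on the strand of its gene.
Gclm, chr3:122245307-122245606, plus strand, letters 134 bases before the start: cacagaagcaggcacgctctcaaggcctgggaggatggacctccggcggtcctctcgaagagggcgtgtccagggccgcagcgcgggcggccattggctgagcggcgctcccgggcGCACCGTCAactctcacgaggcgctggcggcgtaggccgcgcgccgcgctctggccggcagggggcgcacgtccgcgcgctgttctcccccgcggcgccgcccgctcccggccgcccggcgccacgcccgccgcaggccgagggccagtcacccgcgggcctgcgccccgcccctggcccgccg
Mgst1, chr6:138140277-138140576, plus strand, letters 56 bases before the start: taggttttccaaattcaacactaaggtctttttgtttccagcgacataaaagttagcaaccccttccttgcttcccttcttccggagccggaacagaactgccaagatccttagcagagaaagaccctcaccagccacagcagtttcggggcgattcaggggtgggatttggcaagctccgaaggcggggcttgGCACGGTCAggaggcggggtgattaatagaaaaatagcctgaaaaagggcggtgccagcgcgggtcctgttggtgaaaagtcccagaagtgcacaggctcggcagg
Nfe2l2, chr2:75704614-75704913, minus strand, letters 240 bases before the start: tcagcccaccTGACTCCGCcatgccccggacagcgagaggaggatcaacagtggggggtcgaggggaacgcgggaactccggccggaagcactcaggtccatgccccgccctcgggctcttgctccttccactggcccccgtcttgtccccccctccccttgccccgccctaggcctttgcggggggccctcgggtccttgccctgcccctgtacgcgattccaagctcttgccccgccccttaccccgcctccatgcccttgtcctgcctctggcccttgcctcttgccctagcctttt
Gstm5, chr3:107895604-107895903, plus strand, letters 42 bases before the start: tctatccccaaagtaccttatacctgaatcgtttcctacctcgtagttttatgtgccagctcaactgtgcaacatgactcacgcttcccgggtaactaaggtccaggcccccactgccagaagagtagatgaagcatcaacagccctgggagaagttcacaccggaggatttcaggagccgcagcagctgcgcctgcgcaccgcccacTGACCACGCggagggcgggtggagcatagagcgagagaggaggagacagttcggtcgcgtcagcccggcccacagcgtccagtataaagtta
Srxn1, chr2:152105274-152105573, plus strand, letters 29 bases after the start: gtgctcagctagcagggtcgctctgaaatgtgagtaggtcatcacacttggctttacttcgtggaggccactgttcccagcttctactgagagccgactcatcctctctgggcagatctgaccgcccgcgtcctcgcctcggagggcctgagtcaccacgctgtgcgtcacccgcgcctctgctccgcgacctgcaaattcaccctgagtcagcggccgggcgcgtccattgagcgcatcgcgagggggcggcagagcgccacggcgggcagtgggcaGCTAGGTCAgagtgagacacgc
Txnrd1, chr10:82858956-82859255, plus strand, letters 92 bases before the start: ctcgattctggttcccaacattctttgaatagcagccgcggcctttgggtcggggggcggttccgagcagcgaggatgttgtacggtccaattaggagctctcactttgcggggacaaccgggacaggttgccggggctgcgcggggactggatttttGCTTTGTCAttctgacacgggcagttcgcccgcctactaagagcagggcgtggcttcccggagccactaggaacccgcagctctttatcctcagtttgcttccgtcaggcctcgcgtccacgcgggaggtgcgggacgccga

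Of the 10 glutathione transferases 4 were called higher, 4 lower and 2 not, where 22.0% of all genes were called higher and 32.4% lower, and nothing is read from that count. Gstm1, an abundant mu-class enzyme, was at 170.5, 157 and 169.9 FPKM in the controls and 325, 331 and 353 FPKM in Msx1 libraries, 2.03-fold higher (log2 difference 1.02, SE 0.06). The microsomal enzyme gene Mgst1, whose promoter is shown above, was at 28.9, 31.4 and 34.0 FPKM against 65.6, 65.0 and 75.4 FPKM, 2.18-fold higher (1.10, SE 0.08). Gstt3, a theta-class enzyme, was at 13.9, 11.3 and 12.9 FPKM against 5.88, 4.83 and 5.41 FPKM, 2.36-fold lower (-1.10, SE 0.09). All 3 were apart in every library.

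Smaller differences were seen in the other transferases. Mgst3 (98.3 ± 10.1 to 64.4 ± 2.01 FPKM), Gstm5 (59.2 ± 6.75 to 40.2 ± 2.06 FPKM) and Gsta4, which handles lipid aldehydes (107 to 116 FPKM and 83.3 to 94.2 FPKM), were called lower. Gstm2 (95.8 to 99.3 FPKM and 106 to 118 FPKM, log2 difference 0.22) and Gsto1 (69.9 to 95.7 FPKM and 100.3 to 108 FPKM, 0.35, SE 0.11) were called higher. The call of Gstm2 was lost without Msx1 replicate 1 (0.19). The call of Gsto1 was lost without control replicate 2 (0.25), control replicate 3 (0.33) or Msx1 replicate 1 (0.36), 2 (0.37) or 3 (0.32). Gstp1, which was not called, ranged from 199 to 274 FPKM in the controls and 251 to 262 FPKM in Msx1 libraries, and without control replicate 1 it was called higher (0.27). Gstt1 overlapped, at 19.4 to 21.1 and 20.6 to 21.9 FPKM.

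Glutathione peroxidases reduce peroxides with glutathione. Of the 4 genes 0 were called higher and 2 lower, where 22.0% and 32.4% of all genes were, and nothing is read from that count. Gpx1, the cytosolic enzyme, was at 260.4, 206 and 245 FPKM in the controls and 169, 147 and 171 FPKM in Msx1 libraries, 1.46-fold lower with no overlap (log2 difference -0.54, SE 0.10). Gpx8, of the endoplasmic reticulum, was at 151 to 168 FPKM and 115 to 134 FPKM, 1.28-fold lower (-0.36, SE 0.07). Gpx4, which reduces lipid peroxides and guards against ferroptosis, overlapped at 286 to 381 FPKM and 349 to 374 FPKM and was not called, although without control replicate 1 it was called higher (0.23). The secreted enzyme gene Gpx3 overlapped at 138 to 152 and 139 to 149 FPKM.

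**Figure D3:**
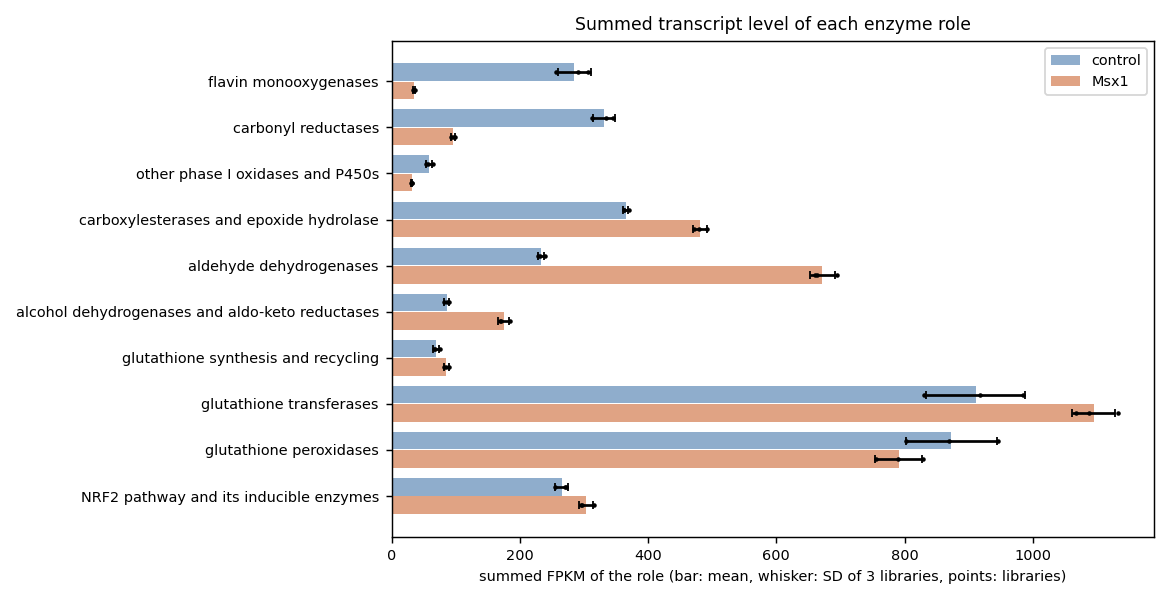
Summed FPKM of each of the 10 roles, with bars for the mean, whiskers for the SD and points for the 3 libraries of each group. Flavin monooxygenases went from 285 ± 25.8 to 34.6 ± 1.44 FPKM and carbonyl reductases from 331 ± 16.9 to 95.8 ± 2.70 FPKM, while aldehyde dehydrogenases went from 233 ± 5.17 to 672 ± 18.8 FPKM.

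Without the libraries that held liver transcripts, control replicate 2 and Msx1 replicate 3, the large differences were nearly as in all 6. Fmo1 was at -3.07, Cbr2 at -3.10, Aoc3 at -3.26, Cyp1b1 at -1.68, Ces1d at 3.45, Ces1g at 2.75, Aldh3a1 at 2.27 and Adh1 at 2.94 on the log2 scale. Aox1 was at 1.29, Ces2g at 1.68, Aldh1a1 at 1.66, Aldh1a3 at 1.40, Aldh1l1 at -1.22, Aldh2 at 1.38 and Adh7 at 1.15. Among the glutathione genes Gclc was at 1.17, Gstm1 at 0.94, Gstt3 at -1.18 and Mgst1 at 1.04. That leave-out called 17 of the 50 higher and 18 lower, and 2362 of all 12371 genes tested higher and 3457 lower. Nothing is read from these counts. The calls of Cbr3 (-0.22), Gstm2 (0.20) and Gsto1 (0.22) were lost and Akr1b3 (-1.22) was called lower. Over the 19 genes with a difference of 1 or more, leaving out any 1 library or these 2 together moved the log2 difference by at most 0.13.

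Several of the genes are neighbours on a chromosome, and neighbours within 200 kb did not all share a direction. In the Gstm cluster on chromosome 3, Gstm5 and Gstm7 at one end were lower (log2 differences -0.54 and -1.12), and Gstm6, Gstm2 and Gstm1 further along were higher (0.39, 0.22 and 1.02). Fmo4 and Fmo1 were lower and Fmo2 beside them was not called. Aldh3a1 was higher (2.29) and its neighbour Aldh3a2 not called (-0.04). Adh7 and Adh1 were higher, and Adh5, the formaldehyde-clearing enzyme gene further along, was at 61.7 ± 3.83 and 61.6 ± 3.24 FPKM. Cbr2 and its neighbour Dcxr, which encodes a xylulose reductase, were both lower (-3.09 and -1.98). Ces1a, Ces1d and Ces1g, and Ces2e and Ces2g, were higher together, as were Aox1 and Aox3. Copies within these clusters can share reads, which limits each value.

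**Figure D4:**
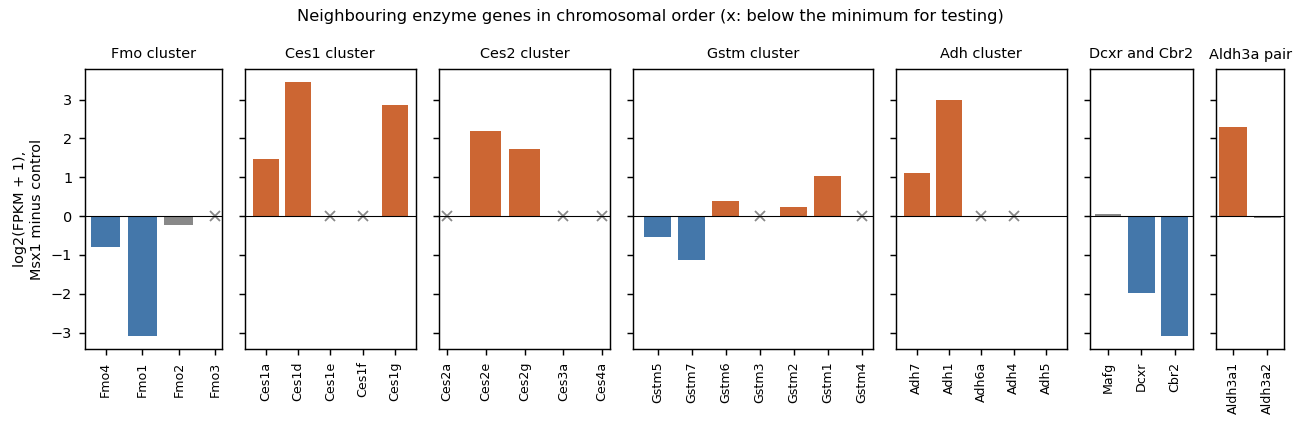
Log2(FPKM + 1) difference, Msx1 minus control, of neighbouring enzyme genes in chromosomal order, with orange bars for genes called higher, blue for lower, grey for not called, and crosses for genes below the filter. Adh5, at -0.00, shows no bar. The Ces1 and Ces2 bars all point up, and the Gstm cluster has bars of both signs.

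Transcript shares within the genes were compared as well, a measure that did not choose them. Of the 53 genes 33 have 1 transcript in the table, and 17 transcripts of 6 genes (Txnrd1, Keap1, Aldh3a1, Aldh3a2, Fmo5 and Aldh1l1) held a mean share of 5% to 95% of their gene and could be tested. By limma on arcsine-square-root shares 0 of the 17 were called, 0 had an unadjusted p under 0.05, and the lowest adjusted p was 0.581, while 0.829% of all transcripts tested were called. No other tool was run on shares, and a share that was not called is not shown to be the same in both groups. StringTie estimates the division of reads among transcripts, and shares scattered widely: the most abundant Aldh3a1 transcript held 55.5% ± 14.1 in control and 41.3% ± 13.8 in Msx1 libraries (SD, n = 3 each).

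Beyond the 53, 6 lists of other genes of the same pathways held 211 genes, of which 148 were tested by limma: 40 rose (27.0%), 53 fell (35.8%) and 55 were not called, shares near the 22.0% and 32.4% of all genes tested. These lists too were chosen with earlier results of these data known, so their shares and p-values are a description. The 23 genes named by rule were taken for their large differences in these same values. They all kept their calls without the libraries that held liver transcripts. Of 33 other aldehyde, alcohol and carbonyl enzymes 17 fell (51.5%, against 32.4% of all genes) and 7 rose (21.2%, against 22.0%), with a median log2 difference of -0.22. Rdh10, the retinol dehydrogenase of the first step to retinoic acid, rose from 15.1 ± 0.465 to 100.4 ± 2.70 FPKM (2.65, SE 0.05, adjusted p = 1.48e-08), and Akr1c14 from 10.7 ± 2.07 to 27.3 ± 1.67 FPKM (1.28, SE 0.12, adjusted p = 5.83e-05). Dcxr fell from 46.7 ± 4.37 to 11.1 ± 1.20 FPKM (-1.98, SE 0.09, adjusted p = 1.39e-06) and Akr1c13 from 8.37 ± 1.59 to 3.82 ± 0.0219 FPKM (-0.94, SE 0.12, adjusted p = 2.68e-04). With libraries scaled to equal totals apart from Msx1, 8 of that list were higher and 12 lower. All genes turned over with that scaling too, to 3503 higher and 2807 lower of 12373, from 2718 and 4014 of 12371.

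Of 29 other phase I enzymes 13 rose (44.8%, against 22.0% of all genes), 4 fell (13.8%, against 32.4%) and 12 were not called, with a median of 0.19. Among those that rose, Cyp4b1, Ces1a and Aox3 averaged 0.241, 0.253 and 0.108 FPKM in the controls. They passed the filter only through the Msx1 group, which limits that share. Cyp26b1, which degrades retinoic acid, rose from 0.730 ± 0.150 to 11.0 ± 0.386 FPKM (log2 difference 2.80, SE 0.08, adjusted p = 1.20e-07) and Ces2e from 2.79 ± 0.214 to 16.4 ± 1.61 FPKM (2.20, SE 0.08, adjusted p = 4.72e-07). The quinone reductase Nqo2 fell from 8.73 ± 0.122 to 6.01 ± 0.320 FPKM (-0.47, SE 0.06, adjusted p = 3.30e-04), as did Cyp39a1 (-0.32, adjusted p = 0.0111). The other 2 that fell, named after their values were seen, were Ephx2 (-0.30, adjusted p = 0.0266) and Cyp2j6 (-0.26, adjusted p = 0.0456). The count of 4 lower was 2 without control replicate 2, Msx1 replicate 1 or Msx1 replicate 3. With equal totals 19 were higher and 1 lower, where 3503 of all 12373 genes tested were higher and 2807 lower. The aryl hydrocarbon receptor gene Ahr, looked at after its values were seen, was not called (12.2 ± 1.46 and 14.5 ± 0.887 FPKM, adjusted p = 0.0513), nor was its partner Arnt. Among the receptor's known target genes, Ahrr (0.978 ± 0.156 to 2.50 ± 0.192 FPKM, adjusted p = 1.06e-04) and Tiparp (9.45 ± 1.32 to 13.3 ± 0.969 FPKM, adjusted p = 0.00562) rose, beside the higher Cyp1a1 and the lower Cyp1b1 described above. Ahrr and Tiparp were also picked after their values were seen, and the receptor's targets were not gone through as a set. Cyp1a2, of the same family as Cyp1a1, was below the filter.

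In the list of other glutathione enzymes 4 of 22 rose (18.2%) and 9 fell (40.9%), near the shares of all genes, with a median of -0.12. Chac1, which cleaves glutathione, rose from 4.27 ± 0.361 to 6.72 ± 0.138 FPKM (log2 difference 0.55, adjusted p = 3.23e-04), and Oplah, of the same cycle, rose (0.50, adjusted p = 2.66e-04), as did Ptges and Gstm6, named after their values were seen. Ptges and Gstm6 averaged 0.224 and 0.483 FPKM in the controls and passed the filter only through the Msx1 group. Gsta1 and Gstt2, called lower, averaged 0.197 and 0.461 FPKM in Msx1 libraries and passed it only through the control group. Gstm7 fell from 6.52 ± 0.610 to 2.47 ± 0.453 FPKM (-1.12, adjusted p = 7.49e-05) and Glrx3 from 32.5 ± 4.29 to 18.4 ± 1.59 FPKM (-0.79, adjusted p = 3.62e-04). The split was 6 higher to 7 lower both by median-of-ratios and with equal totals, and 6 to 8 by quantile normalization. All genes tested split 3321 to 3154, 3503 to 2807 and 3073 to 3633 under these scalings, in that order. Of 13 conjugation enzymes 7 fell (53.8%, against 32.4% of all genes) and 1 rose, with a median of -0.43. Among those that fell, Nnmt, Papss2 and As3mt averaged 0.211, 0.487 and 0.220 FPKM in Msx1 libraries. They passed the filter only through the control group. Ugdh, which makes the sugar donor for glucuronides, fell from 125 ± 5.62 to 70.7 ± 2.90 FPKM (-0.81, adjusted p = 1.10e-05), as did Ugp2, which makes its precursor (-0.66, adjusted p = 6.94e-05). The methyltransferase gene Inmt rose from 0.144 ± 0.125 to 7.43 ± 1.57 FPKM (2.87, adjusted p = 2.25e-06). Inmt was at 0.214, 0.219 and 0 FPKM in the controls, so it passed the filter only through the Msx1 group. A further conjugation gene was called higher without control replicate 1, which made 2.

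Thioredoxin, peroxiredoxin, superoxide and NADPH enzymes had 6 higher (20.7%) and 13 lower (44.8%) of 29, beside 22.0% and 32.4% of all genes, with a median of -0.19, and 8 lower without Msx1 replicate 1. Txnip, the thioredoxin inhibitor, rose from 39.7 ± 4.34 to 148 ± 6.83 FPKM (log2 difference 1.88, adjusted p = 9.53e-07), and thioredoxin itself, Txn1, fell from 222 ± 31.5 to 113 ± 4.93 FPKM (-0.95, adjusted p = 1.04e-04). Extracellular superoxide dismutase Sod3 rose from 213 ± 11.3 to 506 ± 13.0 FPKM (1.24, adjusted p = 1.85e-06), and Pgd, an NADPH source, fell from 125 ± 8.82 to 67.3 ± 2.89 FPKM (-0.89, adjusted p = 1.63e-05). Of 22 other NRF2 partners and inducible genes 9 rose (40.9%, against 22.0% of all genes) and 3 fell (13.6%, against 32.4%), with a median of 0.37. In all 54.5% were called, against 54.4% of all genes. By median-of-ratios scaling 12 rose and 2 fell, where 3321 of all 12367 genes tested rose and 3154 fell. Osgin1 rose from 7.74 ± 0.962 to 15.1 ± 0.607 FPKM (0.89, adjusted p = 6.65e-05) and Trim16 from 7.42 ± 0.0737 to 13.6 ± 0.346 FPKM (0.79, adjusted p = 8.37e-06). Those that fell were Hmox2 (-0.29, adjusted p = 0.00579) and parts of the ligase that KEAP1 recruits, Cul3 (-0.43, adjusted p = 0.00105) and, named after its value was seen, Rbx1 (-0.27, adjusted p = 0.0125). All p-values in these lists are from limma, adjusted over all genes tested.

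**Figure D5:**
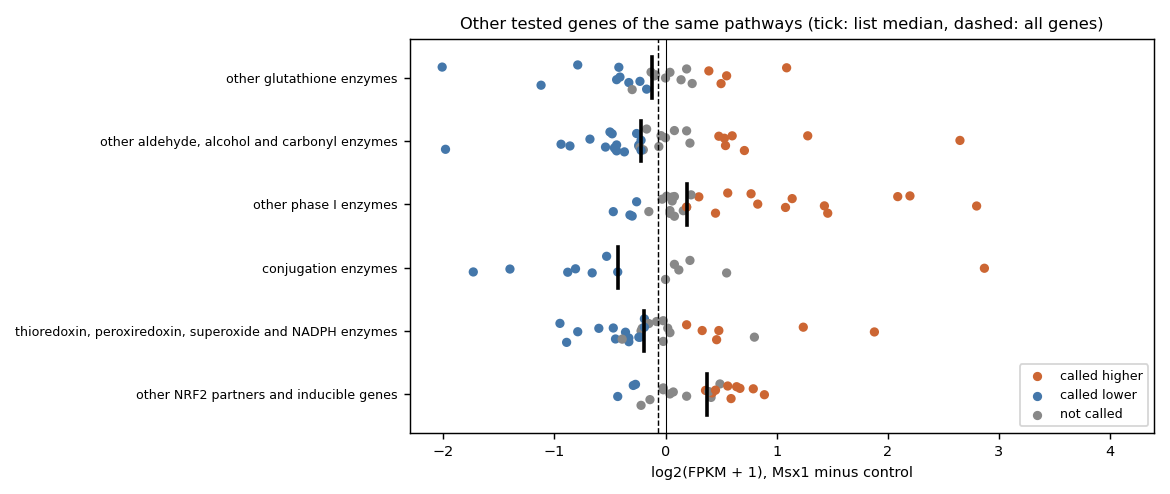
Log2(FPKM + 1) difference, Msx1 minus control, of the 148 tested genes of the 6 other lists, 1 point a gene, coloured by call, with a tick at each list's median and a dashed line at the median of all genes, -0.07. List medians run from -0.43 for conjugation enzymes to 0.37 for NRF2 partners and inducible genes, and every list holds genes on both sides of 0.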

How the data were processed

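RNA sequencing libraries of 3 control and 3 Msx1-overexpressing C2C12 samples were compared. The authors deposited 1 table of FPKM per RefSeq transcript. Trimmomatic, HISAT2 and StringTie were used with mouse build GRCm38 (mm10), per the submitters' processing notes, with no version given in the sources used here. Per the labels, RNA was taken up in Trizol and a NEBNext Ultra kit was used for the libraries, and no source says that counting used strand. Control columns, headed as vector, were matched to samples by their number.

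The 38468 transcripts were given symbols from RefSeq (38193) or GENCODE (156), 119 kept their own identifiers, and FPKM were summed to 24809 genes. No read numbers were used. Depth was estimated from the step between low values, searched from 12 to 30 M fragments: the share of low values within 0.1 of a whole number of fragments was 36.0% to 41.0%, where an unrelated step gives 20%, so whole reads were not recovered and depths are rough. FPKM are per length and relative to each library's total.

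The test was limma 3.58.1 (R 4.3.3) with an intensity trend on log2(FPKM + 1), at a mean of at least 0.5 FPKM and a Benjamini-Hochberg adjusted p under 0.05. Differences are on that scale, on which low genes change less than in FPKM, and folds are ratios of mean FPKM. Tables were made with Python 3.11.15. The fits were tested on simulated data. Transcript shares were fitted after an arcsine-square-root transform, for genes at 1 FPKM or more with no library at 0.

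The 53 genes and all lists were chosen with earlier results of these data known. Values in every library are given for members whose means differ at least 2-fold with the higher at 5 FPKM or more and for 12 preset genes of NRF2, glutathione and aldehyde metabolism. Each other list gives up to 2 called genes per direction with the largest differences at 5 FPKM or more. Same-numbered samples correlated at 0.055, 0.226 and 0.037, so the numbers were not taken as pairs. Alternatives were 3 other scalings, a pseudocount of 0.1, no filter, the most abundant transcript per gene, a replicate block and leaving out each library. Leaving out the 2 libraries with liver transcripts together was added after seeing the data.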

Additional observations from a re-analysis of the deposited data

How the results depend on the processing

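The 50 tested enzyme genes gave 37 calls, 34 to 39 when 1 library was left out and 35 to 40 under the other settings. Calls higher ran from 17 to 21 and calls lower from 17 to 19 when 1 library was left out. Under the other settings they ran from 18 to 24 and from 16 to 19. With equal totals apart from Msx1 24 were higher and 16 lower, where 3503 of all 12373 genes tested were higher and 2807 lower. Nothing is read from these counts. With a replicate block 19 were higher and 18 lower, as without it. By the check used 4 of 6 libraries correlated best with their own number, which does not settle whether the numbers pair the samples. Over all genes the block gave 2692 higher and 4055 lower. Leaving out 1 library gave 2284 to 2823 higher and 3280 to 4272 lower over all genes. The median of all genes was -0.07, 0.00 by median-of-ratios, 0.03 with equal totals apart from Msx1 and -0.03 by quantile normalization, so small differences depend on scaling. Of the 50, 36 kept direction and side of the threshold in every alternative run for them, out of 14. Among these Fmo4 fell below the filter by median-of-ratios and with equal totals, and Cyp1a1 by most abundant transcript, so they have no value there. Signs reversed for Fmo5 (-0.02 to 0.10 when 1 library was left out, negative without control replicate 1 or Msx1 replicate 2), Aldh3a2 (0.03 by median-of-ratios, 0.06 with equal totals, 0.01 by quantile and by most abundant transcript, -0.10 to 0.02 when 1 library was left out, positive without Msx1 replicate 1), Txnrd1 (0.01) and Srxn1 (0.02) with equal totals, and Gpx4 (-0.01 without the libraries with liver transcripts). None of these was called in all 6 libraries. The 4 other phase I genes called lower became 1 with equal totals, 0 by most abundant transcript, 2 without the libraries with liver transcripts and 2 to 3 when 1 library was left out. The 1 conjugation gene called higher became 2 by median-of-ratios, equal totals, quantile and no filter, and 1 to 2 when 1 library was left out. The 13 thioredoxin and NADPH genes called lower became 8 to 16 when 1 library was left out. The cause of these moves was not tested. With 3 libraries a group and rough depths, genes under about 1 FPKM are the least certain.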
